A study of Mus musculus with 9 samples.

Results

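The genes described here are 9 acute phase genes of the mouse: the serum amyloid A genes Saa1, Saa2, Saa3 and Saa4, the orosomucoid genes Orm1 and Orm2, haptoglobin (Hp), leucine-rich alpha-2-glycoprotein 1 (Lrg1) and inter-alpha-trypsin inhibitor heavy chain 4 (Itih4). They are the rows whose gene symbol matched one of these names, 9 of the 18984 genes listed in every library. The names were chosen with the levels of these genes in these libraries already known. Their differences between the groups are therefore a description, given without p-values, and nothing is inferred from them as a set. The study measured polyadenylated RNA of whole lung from C57BL/6 mice. Lungs were taken 24 h after the trachea of each animal had received hyphal fragments of the mould Aspergillus fumigatus (hyphae, 3 libraries), its resting spores (conidia, 3 libraries) or normal saline (control, 3 libraries). The mice are described as immunocompetent, the labels name no mutation or drug, and neither the dose of either fungal form nor the age or sex of the animals is given in the sources used here. The labels leave unsaid whether each of a group's 3 libraries is a different animal, so the spread between them may be partly technical.

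Acute phase proteins are plasma proteins whose production changes sharply within hours of infection or injury. Most are made by hepatocytes under the control of interleukin-6, which acts through STAT3, and of interleukin-1 and tumour necrosis factor, which act through NF-kB and C/EBP factors, but inflamed lung, fat and mucosa make some of them locally. In the mouse Saa1 and Saa2 are the serum amyloid A genes best known from liver and Saa3 the one best known from macrophages, epithelium and fat outside it, while Saa4 is the member whose level changes least in inflammation.

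The promoters of Saa1, Saa2, Saa3, Orm2 and Itih4 are shown because Saa1 and Saa2 are near-identical gene copies whose levels are reported separately below, and because the factors named above act at such sequences. The sequences are RefSeq's for the assembly GRCm38.p6, where 7 of the 9 genes were matched, all but Orm1 and Hp. Each line gives the last 120 bases before the start site, 5′ to 3′ on the strand of the gene. Capitals mark matches, on either strand, to a C/EBP motif (TTNNGNAA) or a STAT motif (TTCNNNGAA), where N is any base. The stretches are chr7:46742981-46743100, minus strand, for Saa1, chr7:46751713-46751832, plus strand, for Saa2, chr7:46715677-46715796, minus strand, for Saa3, chr4:63362329-63362448, plus strand, for Orm2 and chr14:30886356-30886475, plus strand, for Itih4.
Saa1: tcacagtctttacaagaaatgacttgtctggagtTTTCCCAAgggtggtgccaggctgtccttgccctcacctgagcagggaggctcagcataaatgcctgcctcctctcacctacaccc
Saa2: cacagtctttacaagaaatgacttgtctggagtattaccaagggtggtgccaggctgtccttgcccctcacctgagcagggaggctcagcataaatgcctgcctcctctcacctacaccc
Saa3: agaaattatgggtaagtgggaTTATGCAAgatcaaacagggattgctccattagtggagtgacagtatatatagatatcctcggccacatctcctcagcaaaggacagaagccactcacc
Orm2: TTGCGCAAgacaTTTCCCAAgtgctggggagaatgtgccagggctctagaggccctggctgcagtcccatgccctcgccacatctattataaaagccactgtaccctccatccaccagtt
Itih4: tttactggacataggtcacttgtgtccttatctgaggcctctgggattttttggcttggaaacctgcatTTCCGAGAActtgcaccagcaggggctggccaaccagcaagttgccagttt

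Over the full 250 bases before the start site, Saa1 and Saa2 were 94.8% identical, whereas the other pairs among the 7 promoters were 43.8% to 50.2% identical. The C/EBP motif occurred in 5 of the 7 promoters, against 36.8% of the 32851 promoter windows of the same length. Saa1 had matches at positions -182 to -175 and -86 to -79 relative to the start site, and Saa2 had the match at -183 to -176 alone. Saa3 had 4 matches, the nearest at -99 to -92, Saa4 had 2, and Orm2 had matches at -120 to -113, on both strands, and at -108 to -101. The STAT motif occurred in Itih4, at -51 to -43, and in none of the other 6, against 7.02% of all windows, and the NF-kB motif (GGGA, any base, TT, any base, CC) occurred in none of the 7, against 0.980% of all windows. None of the matches printed overlaps a match to another of these motifs. A match describes letters in a window and shows neither binding nor a cause, and a window without a match says nothing about the factor.

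All values are FPKM, fragments scaled to transcript length and to the fragments of the library, as the authors deposited them, and so are per length and can be set side by side between genes. Libraries summed to 492540 to 561250 FPKM and listed 12451 to 13730 genes at 1 FPKM or more. These are not counts. Judged by the steps between low values, each library held very roughly 18600000 to 19800000 fragments, with the effective length of a transcript taken as 50 bases short of the whole. A gene was tested if it reached 1 FPKM in at least 3 of the 9 libraries, which left 13761 genes. Of the 9 genes 8 passed. Saa1, Saa2 and Orm2 did so only through the conidia libraries, since outside them they reached 1 FPKM in 1, 2 and 2 libraries, so the filter alone made it likely that they would differ; Saa4, at 1 FPKM in 0 libraries outside conidia, did not pass. Called here means an adjusted p under 0.05 in limma on log2(FPKM + 1) with Benjamini-Hochberg adjustment over all tested genes. Differences are given on that log2(FPKM + 1) scale, which understates the change of low genes. The median difference of all genes was -0.29 for hyphae minus conidia, -0.37 for hyphae minus control and -0.07 for conidia minus control. Where a second value is called rescaled, each library had been divided by a median-of-ratios factor that brings these medians to about 0. The 3 comparisons share libraries pairwise, so their values are not independent of each other.

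Lungs given conidia had the highest mean level of all 9 genes. The mean in lungs given hyphae lay between conidia and control for 6 genes and below control for Saa4, Orm2 and Hp, although several of these differences were within the spread between libraries. The 9 genes together summed to 979, 696 and 663 FPKM in the hyphae libraries, 5304, 1622 and 3306 FPKM in the conidia libraries and 1217, 1071 and 868 FPKM in the control libraries. All 3 conidia libraries lay above all the others, and hyphae libraries 2 and 3 lay below every control library. The make-up of that sum also differed between the groups. Hp supplied 60.8% to 80.2% of it in hyphae libraries, 31.6% to 52.4% in conidia libraries and 89.0% to 91.7% in control libraries. Saa3 supplied 4.86% to 13.5% in hyphae libraries, 31.0% to 51.3% in conidia libraries and 0.298% to 2.06% in control libraries. In RNA of whole lung, fewer cells of a type and less RNA per cell cannot be told apart.

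**Figure D1:**
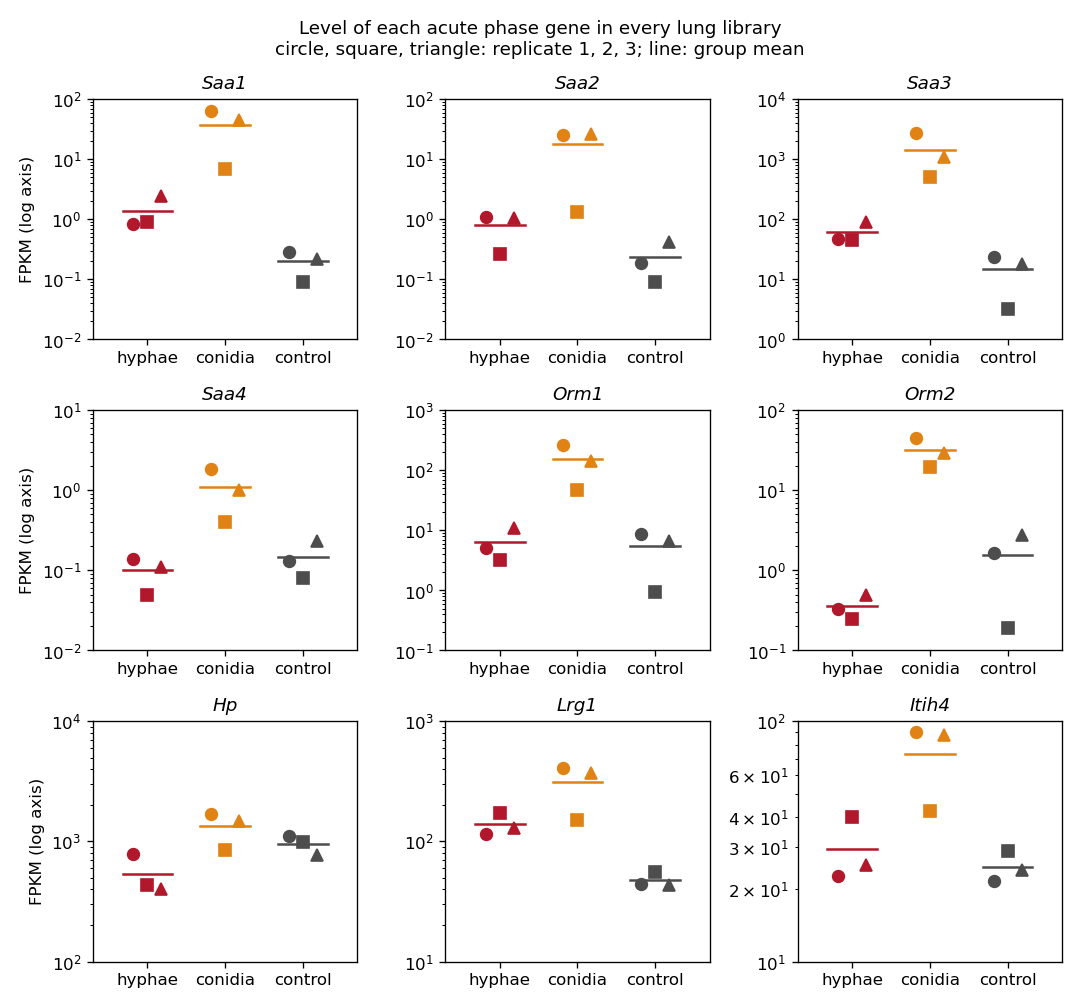
Each panel plots the level of 1 gene, in FPKM on a log axis, in the 3 hyphae, 3 conidia and 3 control libraries from left to right. The symbol gives the replicate and the line the group mean. In every panel conidia replicate 2, the square, is the lowest of the 3 conidia libraries, and Hp is the gene whose conidia and control libraries overlap.

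The serum amyloid A proteins are small apolipoproteins that travel on high-density lipoprotein and attract phagocytes. Saa3 (Entrez 20210) was listed at 47.58, 45.08 and 89.22 FPKM in hyphae libraries, 2721.63, 502.61 and 1109.61 FPKM in conidia libraries and 23.93, 3.19 and 17.91 FPKM in control libraries. The 3 groups did not overlap: the lowest conidia library stood above the highest hyphae library, and the lowest hyphae library above the highest control library. The means were 60.6 ± 24.8 FPKM in hyphae, 1445 ± 1147 FPKM in conidia and 15.0 ± 10.7 FPKM in control (SD, n = 3 each). The mean of hyphae was 4.04 times that of control, and the mean of conidia was 96.2 times that of control and 23.8 times that of hyphae. The difference in log2(FPKM + 1) was -4.29 (SE 0.75) for hyphae minus conidia, 2.23 (SE 0.75) for hyphae minus control and 6.52 (SE 0.75) for conidia minus control, and Saa3 was called in all 3. Its call for hyphae minus control was lost without control replicate 2 (1.43), hyphae replicate 1 (2.36) or hyphae replicate 3 (1.91).

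Saa1 (Entrez 20208) was listed at 0.83, 0.91 and 2.42 FPKM in hyphae libraries, 62.61, 7.02 and 44.33 FPKM in conidia libraries and 0.29, 0.09 and 0.22 FPKM in control libraries. The groups did not overlap here either, with hyphae between conidia and control. The control values stand for about 3, 1 and 2 fragments, so no ratio to them is given. Hyphae minus conidia was -3.64 (SE 0.66) and called, conidia minus control was 4.57 (SE 0.66) and called, and hyphae minus control was 0.93 (SE 0.66) and not called. With a pseudocount of 0.1 in place of 1, the difference of Saa1 for hyphae minus control was 2.21 and was called, as it was without conidia replicate 2 or with only the 2 groups compared. Its call for conidia minus control was lost without the filter on low values.

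Saa2 (Entrez 20209), its neighbour with the near-identical promoter printed above, was listed at 1.08, 0.27 and 1.07 FPKM in hyphae libraries, 25.68, 1.33 and 26.76 FPKM in conidia libraries and 0.19, 0.09 and 0.42 FPKM in control libraries. Conidia libraries lay above all the others, conidia replicate 2 by a narrow margin over hyphae replicate 1, and hyphae overlapped control. The difference was -2.77 (SE 0.82) for hyphae minus conidia, which was called, while hyphae minus control, 0.52 (SE 0.82), and conidia minus control, 3.29 (SE 0.82), were not called. The call for hyphae minus conidia was lost without conidia replicate 1 (-2.19), conidia replicate 3 (-2.16) or hyphae replicate 2 (-2.53). Of all runs of 50 bases in the longest Saa1 transcript 13.2% also occur in Saa2, and 9.12% of those of Saa2 occur in Saa1, so part of the fragments of either gene could have been counted for the other. RefSeq also lists Saa2 as an older name of Entrez 20208 and Saa1 as an older name of Entrez 20209, and the values here go by the identifiers.

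Saa4 (Entrez 20211) was the lowest of the 4 serum amyloid A genes in conidia libraries. It was listed at 0.14, 0.05 and 0.11 FPKM in hyphae libraries, 1.87, 0.40 and 1.01 FPKM in conidia libraries and 0.13, 0.08 and 0.23 FPKM in control libraries. It was not tested, since only 2 libraries reached 1 FPKM. Every conidia library stood above every other library, and hyphae overlapped control, with about 2 to 6 fragments per hyphae library and 3 to 9 per control library.

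Saa3 was the main serum amyloid A RNA in every library. It made up 95.9% to 97.3% of the summed FPKM of the 4 genes in hyphae libraries, 93.9% to 98.3% in conidia libraries and 92.5% to 97.5% in control libraries, and these ranges overlap. Saa1 made up 1.67% to 2.61% in hyphae, 1.37% to 3.75% in conidia and 1.17% to 2.61% in control libraries, and Saa2 0.583% to 2.18% in hyphae, 0.26% to 2.26% in conidia and 0.774% to 2.61% in control libraries. The share of Saa4 did differ, at 0.108% to 0.282% in hyphae, 0.0665% to 0.0855% in conidia and 0.53% to 2.32% in control libraries, ranges that do not overlap, although the hyphae and control values rest on few fragments.

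The orosomucoids, also called alpha-1-acid glycoproteins, are plasma proteins that bind drugs and lipids and dampen leukocyte activity. Orm1 (Entrez 18405) was listed at 5.17, 3.16 and 11.12 FPKM in hyphae libraries, 266.44, 47.27 and 142.91 FPKM in conidia libraries and 8.56, 0.95 and 6.79 FPKM in control libraries. All conidia libraries were above all the others, and hyphae overlapped control. The means were 6.48 ± 4.14 FPKM in hyphae, 152 ± 110 FPKM in conidia and 5.43 ± 3.98 FPKM in control (SD, n = 3 each), so that conidia was 28.0 times control and 23.5 times hyphae. The difference of -4.18 (SE 0.76) for hyphae minus conidia was called, and hyphae minus control was 0.37 (SE 0.76) and not called. The value for hyphae minus control changed sign without control replicate 2 (-0.35) or hyphae replicate 3 (-0.05). Conidia minus control was 4.55 (SE 0.76) and called, a call lost after rescaling (4.58), without the filter on low values and with only the 2 groups compared.

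Orm2 (Entrez 18406) was listed at 0.33, 0.25 and 0.49 FPKM in hyphae libraries, 45.74, 19.31 and 29.69 FPKM in conidia libraries and 1.67, 0.19 and 2.75 FPKM in control libraries. Conidia again stood above all the others, and hyphae lay below 2 of the 3 control libraries and above the last. Hyphae minus conidia was -4.51 (SE 0.42) and called, for a gene that was tested only through its conidia libraries. Conidia minus control was 3.75 (SE 0.42) and called, and hyphae minus control was -0.76 (SE 0.42) and not called. Without control replicate 2, which was the lowest control library for both orosomucoids, that last difference was -1.23 and was called.

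The balance between the orosomucoids was not the same in all groups. Orm1 over Orm2 was 15.7, 12.6 and 22.7 in hyphae libraries, 5.83, 2.45 and 4.81 in conidia libraries and 5.13, 5.0 and 2.47 in control libraries. The 3 hyphae libraries stood above the other 6, and conidia and control overlapped. The hyphae values of Orm2 rest on about 5, 4 and 7 fragments, and the transcripts share 20.4% of their runs of 50 bases, so some reads may have been split between them. Orm3 (Entrez 18407), another orosomucoid gene that was added after its values were seen, was listed at 1.23, 1.17 and 1.77 FPKM in hyphae libraries, 23.74, 2.14 and 10.74 FPKM in conidia libraries and 0.89, 0.74 and 1.13 FPKM in control libraries. It too was highest in the conidia libraries.

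Haptoglobin captures haemoglobin set free from red cells, which macrophages then take up through the receptor CD163. Hp (Entrez 15439) was the most abundant of the 9 genes in hyphae and control lungs. It was listed at 784.75, 434.69 and 402.62 FPKM in hyphae libraries, 1678.07, 850.48 and 1490.95 FPKM in conidia libraries and 1115.82, 981.53 and 772.60 FPKM in control libraries. Hyphae libraries lay below all conidia libraries and touched the range of control, and conidia overlapped control through conidia replicate 2. The means were 541 ± 212 FPKM in hyphae, 1340 ± 434 FPKM in conidia and 957 ± 173 FPKM in control (SD, n = 3 each). The mean of hyphae was 0.565 times and the mean of conidia 1.4 times that of control. Hyphae minus conidia was -1.32 (SE 0.32) and called, also after rescaling (-0.98). Hyphae minus control was -0.87 (SE 0.32) and called, but not after rescaling (-0.46), without the filter on low values, or without control replicate 1 (-0.75), control replicate 2 (-0.85), hyphae replicate 2 (-0.75) or hyphae replicate 3 (-0.69). Conidia minus control was 0.44 (SE 0.32) and not called.

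Lrg1 is a secreted glycoprotein of neutrophil granules, endothelium and liver that modifies TGF-beta signalling. Lrg1 (Entrez 76905) was listed at 116.31, 171.16 and 130.39 FPKM in hyphae libraries, 411.66, 151.35 and 373.14 FPKM in conidia libraries and 44.50, 55.88 and 43.33 FPKM in control libraries. Every hyphae and conidia library stood above every control library, and hyphae and conidia overlapped, because conidia replicate 2 fell among the hyphae libraries. The means were 139 ± 28.5 FPKM in hyphae, 312 ± 140 FPKM in conidia and 47.9 ± 6.93 FPKM in control (SD, n = 3 each), so that hyphae was 2.91 times and conidia 6.51 times control. Hyphae minus control was 1.51 (SE 0.34) and called, also rescaled (1.92) and whichever 1 library was left out. Conidia minus control was 2.56 (SE 0.34) and called. Hyphae minus conidia was -1.05 (SE 0.34) and called, a call that rescaling (-0.71) removed, as did comparing only the 2 groups and leaving out conidia replicate 1 (-0.79), conidia replicate 3 (-0.86), hyphae replicate 1 (-0.93) or hyphae replicate 3 (-1.01).

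Itih4 encodes a plasma heavy chain that, unlike its relatives, is not joined to the light chain bikunin, and that inhibits proteases. Itih4 (Entrez 16427) was listed at 22.62, 40.12 and 25.29 FPKM in hyphae libraries, 90.60, 42.26 and 87.39 FPKM in conidia libraries and 21.58, 28.84 and 24.13 FPKM in control libraries. Conidia libraries lay above all the others, with conidia replicate 2 just above hyphae replicate 2, and hyphae overlapped control. The means were 29.3 ± 9.43 FPKM in hyphae, 73.4 ± 27.0 FPKM in conidia and 24.8 ± 3.68 FPKM in control (SD, n = 3 each). Hyphae minus conidia was -1.26 (SE 0.31) and called, but not after rescaling (-0.93). Hyphae minus control was 0.20 (SE 0.31) and not called, with its sign turned without hyphae replicate 2 (-0.04), and conidia minus control was 1.46 (SE 0.31) and not called.

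**Figure D2:**
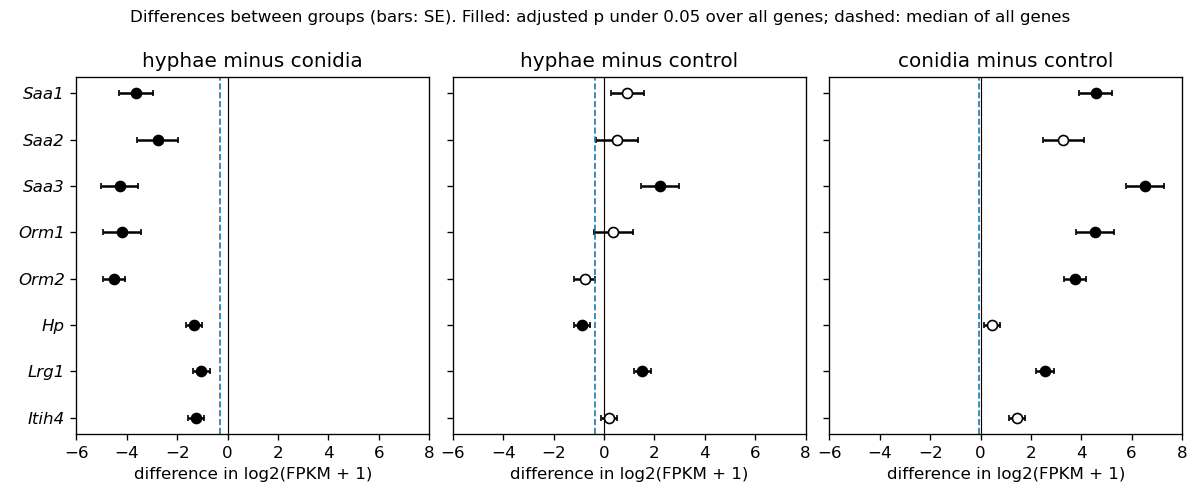
The plot gives, for the 8 tested genes, the difference in log2(FPKM + 1) with its SE for hyphae minus conidia, hyphae minus control and conidia minus control. Filled points were called over all genes and the dashed line is the median of all genes. All 8 points lie left of the dashed line in the first panel, where Orm2 is lowest at -4.51, and right of it in the last, where Saa3 is highest at 6.52.

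Set beside all genes, the counts read as follows. For hyphae minus conidia 8 genes were called lower (6 after rescaling, with Lrg1 and Itih4 lost), 3 of them the genes that passed the filter only through conidia, in a comparison in which 55.2% of all tested genes were called, 42.5% lower and 12.7% higher (51.0%, 25.2% and 25.8% rescaled). For hyphae minus control 2 were called higher and 1 lower (2 and 0 rescaled), where 64.9% of all genes were called, 14.9% higher and 50.0% lower (59.5%, 29.5% and 30.0% rescaled). For conidia minus control 5 were called, all higher (4 rescaled), Saa1 and Orm2 among them, where 0.690% of all genes were called, 0.596% higher and 0.0945% lower (0.342%, 0.298% and 0.0436% rescaled). Nothing is read from these counts against their backgrounds, because the genes were chosen from the same contrasts and because part of them passed the filter only where they are high. In rank from the lowest of 13761 for hyphae minus conidia, the genes that passed it without help from conidia stood at 3 for Saa3, 4 for Orm1, 619 for Hp, 744 for Itih4 and 1361 for Lrg1.

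Counted by overlap, 8 of the 9 genes had every hyphae library below every conidia library, against 45.1% of tested genes. Lrg1 was the exception, and none lay wholly above, against 14.8%. For hyphae and control, Saa1, Saa3 and Lrg1 had every hyphae library above every control library, against 17.3% of tested genes. The other 6 overlapped and none lay wholly below, against 53.4% of tested genes that did. For conidia and control, 8 of the 9 had every conidia library above every control library, against 12.0% of tested genes. Hp, the exception, overlapped, and none lay wholly below, against 17.8%. These shares cover tested genes alone, whereas the 9 include Saa4, which was not tested. Saa1, Saa2 and Orm2 passed the filter only through conidia, so nothing is read from these counts either.

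The 3 conidia libraries stood in nearly the same order for these genes. Conidia replicate 2 was the lowest of the 3 for 9 of 9 genes, replicate 1 was the highest for 8 and replicate 3 for Saa2. With conidia replicate 2 left out, 7 of the 8 tested genes were called for conidia minus control. The 5 calls of that comparison fell to 0 without control replicate 1, 2 or 3, without conidia replicate 1 or 3 and without hyphae replicate 2, which enters through the shared estimate of spread. Without conidia replicate 3 or control replicate 1 the same limma fit called 0 genes in all with 1878 and 2005 genes at an unadjusted p under 0.05.

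The patterns most like those of these genes were sought among the other 13760 tested genes by Pearson's r of log2(FPKM + 1) over the 9 libraries, which fall into their 3 groups. The coefficients therefore reflect differences between groups as well as within them, and the top 3 for each gene ran between 0.959 and 0.99. Saa3 was most like Soat2 (0.979), Serpina3n (0.975) and Orm1 (0.961), and Saa1 was most like Fnip2 (0.982), Mvp (0.979) and Cd300lf (0.977). For Saa2 they were Cntfr (0.99), Abcg2 (0.982) and Hsd11b2 (0.977). Orm1 and Orm2 shared Ifitm1 as the nearest gene (0.977 and 0.984), and Lrg1 was nearest to Tnfrsf1a (0.989) and Fga (0.976). Hp was nearest to Slc12a2 (0.977), Sgf29 (0.971) and Steap2 (0.967), and Itih4 to Mreg (0.96), Fam214b (0.96) and F10 (0.959).

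A list of 22 other positive acute phase genes, of which 15 were tested, had 8 genes called lower and 1 higher for hyphae minus conidia (7 and 1 rescaled), with a median of -0.89. Of all tested genes 42.5% were called lower and 12.7% higher there (25.2% and 25.8% rescaled). This list and those below were drawn up with earlier results of these data known. The genes named from them were mostly picked for their large differences. Adjusted p-values printed for them are therefore a description, and nothing is read from the list counts against their backgrounds. Serpina3m and Serpina3n encode serine protease inhibitors related to antichymotrypsin. Serpina3n was listed at 146.86, 115.53 and 123.41 FPKM in hyphae libraries, 726.86, 227.95 and 535.12 FPKM in conidia libraries and 81.62, 47.17 and 59.54 FPKM in control libraries. Its 3 groups did not overlap, in the same order as for Saa3. It fell for hyphae minus conidia by 1.79 (SE 0.38, limma adjusted p = 0.00421). Serpina3m (-2.50, adjusted p = 0.00366), the complement protease factor B, Cfb (-2.0, adjusted p = 0.00205), and the copper carrier ceruloplasmin, Cp (-1.94, adjusted p = 0.000284), were lower in hyphae than in conidia libraries by the same limma fit.

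For hyphae minus control the same list had 7 genes called higher and 1 lower (8 and 0 rescaled), with a median of 0.40. The shares of all tested genes were 14.9% called higher and 50.0% lower (29.5% and 30.0% rescaled). With single libraries left out the list had 3 to 9 calls. The lowest count came without control replicate 2 or hyphae replicate 2, and 4 calls came without control replicate 3 or hyphae replicate 1. Lipocalin 2, Lcn2, which binds bacterial siderophores and so keeps iron from them, was listed at 723.34, 2292.9 and 2355.51 FPKM in hyphae libraries, 9456.84, 1197.27 and 5785.54 FPKM in conidia libraries and 176.69, 124.72 and 216.81 FPKM in control libraries. Both fungal groups stood above control and overlapped each other through conidia replicate 2. Hyphae minus control was 3.22 (SE 0.74, limma adjusted p = 0.00454), and hyphae minus conidia was -1.36 (SE 0.74, adjusted p = 0.147). The long pentraxin Ptx3, which opsonises Aspergillus conidia, rose by 3.01 (SE 0.75, limma adjusted p = 0.00681) for hyphae minus control. For conidia minus control 3 of the 15 were called, all higher (2 rescaled): Lcn2 (4.57), Serpina3m (3.55) and Serpina3n (2.84). In that comparison 0.596% of all tested genes were called higher (0.298% rescaled). The calls of the list went to 0 without the same 6 libraries as those of the serum amyloid and orosomucoid genes. They went to 10 without conidia replicate 2.

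Of 10 plasma proteins whose production is known to fall in the acute phase, 5 were tested. For hyphae minus control 4 of them were called lower (1 rescaled, and 2 without control replicate 1, hyphae replicate 2 or hyphae replicate 3). In that comparison 50.0% of all tested genes were called lower (30.0% rescaled). The 4 were the lipoprotein enzyme paraoxonase, Pon1 (-1.22), the retinol carrier Rbp4 (-1.10), fetuin B, Fetub (-1.08), and transferrin, Trf (-0.83). For hyphae minus conidia limma called 0 of the 5, with 0 at an unadjusted p under 0.05, and for conidia minus control it also called 0, with 3 at an unadjusted p under 0.05.

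The cytokines, receptors and transcription factors known to drive acute phase genes were read as a list that also held the inhibitor Socs3. Several genes of that list were higher in hyphae than in conidia lungs, Nfkbiz and Socs3 among them. Of 21 tested, Socs3 included, 8 were called higher and 2 lower for hyphae minus conidia (10 higher and 0 lower rescaled), with a median of 0.27. The 2 called lower were the receptors Il6st (-0.56) and Lifr (-0.59). The list had 6 calls in all without conidia replicate 3 or hyphae replicate 2. The shares of all tested genes were 12.7% called higher and 42.5% lower (25.8% and 25.2% rescaled). Socs3, the feedback inhibitor induced by STAT3, was listed at 192.46, 369.28 and 604.15 FPKM in hyphae libraries, 150.01, 49.96 and 87.59 FPKM in conidia libraries and 16.73, 20.23 and 14.08 FPKM in control libraries. Its groups did not overlap, and hyphae was the highest group where Saa3 and Orm1 had conidia highest. Socs3 rose by 2.0 for hyphae minus conidia (SE 0.46, limma adjusted p = 0.00606) and by 4.30 for hyphae minus control (SE 0.46, adjusted p = 0.000113).

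Interleukin-6, Il6, the chief inducer of hepatic acute phase genes, was listed at 13.19, 19.34 and 71.22 FPKM in hyphae libraries, 18.46, 3.27 and 4.42 FPKM in conidia libraries and 0.94, 0.33 and 0.15 FPKM in control libraries. Both fungal groups were above control, and they overlapped each other through conidia replicate 1. Il6 rose by 4.26 for hyphae minus control (SE 0.69, limma adjusted p = 0.000764). For hyphae minus conidia it rose by 1.84 (SE 0.69, adjusted p = 0.0466), a call lost without any of control replicates 1, 2 and 3, conidia replicates 2 and 3 or hyphae replicates 2 and 3, with a pseudocount of 0.1, without the filter and with only the 2 groups compared. Nfkbiz, an NF-kB cofactor needed for Il6 and Lcn2 transcription (1.83, adjusted p = 0.0114), and the interleukin-6 family cytokine Lif (1.53, adjusted p = 0.00618) were also higher in hyphae than in conidia libraries by limma. For hyphae minus control 15 of the 21 were called higher and 2 lower (15 and 1 rescaled), with a median of 1.63. In that comparison 14.9% of all tested genes were called higher and 50.0% lower (29.5% and 30.0% rescaled). Among the higher of the list were tumour necrosis factor, Tnf (4.03), and oncostatin M, Osm (3.19). The call of Osm was lost without control replicate 3 (3.07), hyphae replicate 2 (2.96) or hyphae replicate 3 (2.25). Between hyphae and conidia neither Tnf (0.18) nor Osm (0.57) was called, and neither were the interleukin-1 genes Il1a (0.08) and Il1b (-0.77). For conidia minus control, where 0.596% of all tested genes were called higher, Tnf alone was called, at 3.85. That call was lost after rescaling, without the filter and without control replicate 1, 2 or 3, conidia replicate 1 or 3 or hyphae replicate 2, and the list had 0 to 8 calls with 1 library left out, the most without conidia replicate 2.

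**Figure D3:**
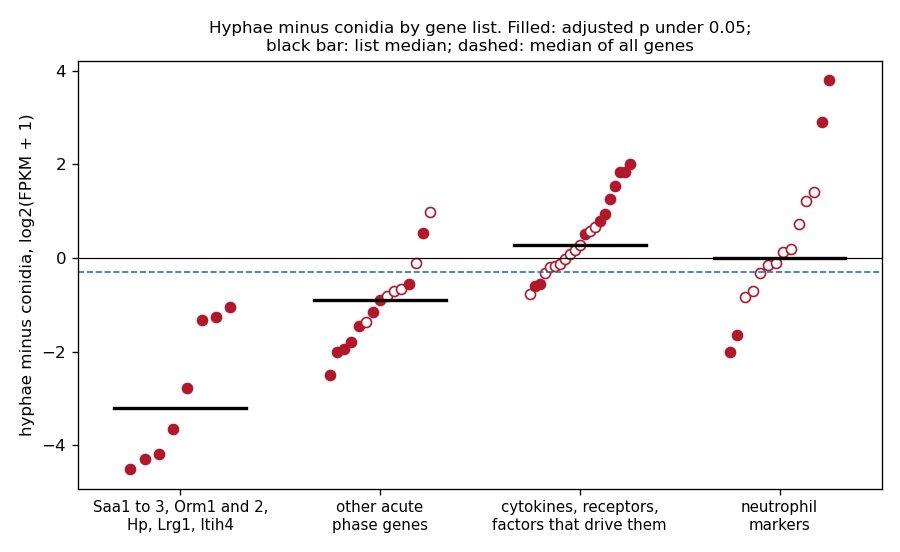
The plot gives hyphae minus conidia, as a difference in log2(FPKM + 1), for each tested gene of 4 lists. Filled points were called, black bars are list medians and the dashed line is the median of all genes. The medians stand at -3.2 for the 8 acute phase genes described here, of which 3 were tested only through conidia. They stand at -0.89, 0.27 and 0.01 for the other acute phase genes, their inducers listed with the inhibitor Socs3, and the neutrophil markers.

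Of 17 receptors and partners of these proteins 6 were called lower and 1 higher for hyphae minus conidia (3 and 2 rescaled). In that comparison 42.5% of all tested genes were called lower and 12.7% higher (25.2% and 25.8% rescaled). The formyl peptide receptors Fpr1 and Fpr2 are receptors of phagocytes, and Fpr2 is the one through which serum amyloid A attracts them. Fpr2 was listed at 3.92, 6.87 and 14.07 FPKM in hyphae libraries, 42.6, 13.14 and 26.42 FPKM in conidia libraries and 4.59, 4.98 and 4.11 FPKM in control libraries. Hyphae and conidia overlapped through hyphae replicate 3 and conidia replicate 2. Fpr2 fell by 1.62 for hyphae minus conidia (SE 0.46, limma adjusted p = 0.0154), and this call was lost after rescaling (-1.31), as was that of Fpr1 (-2.07, -1.79 rescaled). The call of Fpr1 was also lost with only the 2 groups compared and without conidia replicate 1 (-1.48), hyphae replicate 1 (-1.45) or hyphae replicate 2 (-2.14). Tlr4, a receptor that serum amyloid A3 can engage, fell for hyphae minus conidia by 1.27 (SE 0.13, limma adjusted p = 0.000115) and for hyphae minus control by 0.86 (SE 0.13, adjusted p = 0.000473), both also after rescaling. Hemopexin, Hpx, the scavenger of haem that works beside haptoglobin, was also lower in hyphae than in conidia libraries (-1.45, limma adjusted p = 0.0117). For hyphae minus control 5 were called higher and 2 lower (10 and 1 rescaled), among them Tlr2 (2.60), haem oxygenase 1, Hmox1 (1.70), and the lipoprotein receptor Scarb1 (1.47). The shares of all tested genes were 14.9% called higher and 50.0% lower (29.5% and 30.0% rescaled). For conidia minus control limma called 0 of the 17, with 9 at an unadjusted p under 0.05. Of the relatives of Itih4 and the hyaluronan genes, 12 of 15 were tested. Between hyphae and conidia, 0 of them were called higher in hyphae and 3 lower (1 and 2 rescaled). Between hyphae and control, 2 were called higher in hyphae and 3 lower (4 and 1 rescaled).

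Markers of other cell types were read beside these genes. Of 13 hepatocyte markers in the files, 11 were under 1 FPKM in every library, among them albumin, Alb, at means of 0.593 FPKM in hyphae, 0.287 FPKM in conidia and 0.457 FPKM in control libraries. The remaining 2 were Tat and Cyp2e1, which is not specific to liver. The 14 neutrophil markers summed to 716, 2050 and 6274 FPKM in hyphae libraries, 3275, 937 and 2358 FPKM in conidia libraries and 179, 188 and 205 FPKM in control libraries. Both fungal groups stood above control and overlapped each other, and conidia replicate 2 was the lowest conidia library here too. For hyphae minus conidia 2 of the neutrophil markers were called higher, Camp and Ngp, and 2 lower, Csf3r and Cxcr4. In that comparison 12.7% of all tested genes were called higher and 42.5% lower. The call of Ngp was lost without the filter, with only the 2 groups compared and without control replicate 1, 2 or 3, conidia replicate 2 or hyphae replicate 2 or 3. Between hyphae and control 11 of the neutrophil markers were called higher in hyphae and 1 lower, against 14.9% and 50.0% of all tested genes. For conidia minus control 3 of the neutrophil markers were called higher (0 rescaled or without the filter), against 0.596% of all tested genes (0.298% rescaled). They had 0 calls without control replicate 1, 2 or 3, conidia replicate 1 or 3 or hyphae replicate 2. They had 9, 10 and 8 calls without conidia replicate 2, hyphae replicate 1 and hyphae replicate 3.

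Macrophage and monocyte markers, 11 in number, summed to 4001 to 4833 FPKM in hyphae, 2969 to 4445 FPKM in conidia and 2721 to 4423 FPKM in control libraries, which overlap. Lyz2 made up most of these sums. For hyphae minus conidia 6 of the 11 markers were called lower and 0 higher (5 and 1 rescaled), led by Ccr2 (-3.23). The shares of all tested genes were 42.5% called lower and 12.7% higher (25.2% and 25.8% rescaled). For conidia minus control, where 0.596% of all tested genes were called higher (0.298% rescaled), 2 of the markers were called higher and 0 lower (1 and 0 rescaled). That count was 0 without the filter, with only the 2 groups compared and without control replicate 1, 2 or 3, conidia replicate 1 or 3 or hyphae replicate 2, and 5 without conidia replicate 2. The adipose markers, 8 in number, summed to 36.9, 10.6 and 408 FPKM in hyphae, 24.2, 102 and 220 FPKM in conidia and 892, 38.7 and 110 FPKM in control libraries, and the highest library for them was control replicate 1. The mesothelial markers, 7 in number, summed to 228 to 364 FPKM in hyphae, 309 to 360 FPKM in conidia and 274 to 449 FPKM in control libraries. Club and secretory cell markers, 7 in number, had sums made up mostly of Scgb1a1. They summed to 40955, 37504 and 32706 FPKM in hyphae, 48899, 47905 and 65328 FPKM in conidia and 126886, 85883 and 68979 FPKM in control libraries, and these sums do not overlap. Scgb1a1 alone overlapped between conidia and control, with up to 60181.7 FPKM in conidia and down to 59121.38 FPKM in control libraries. For hyphae minus control 5 of the 7 were called lower and 0 higher (3 and 0 rescaled, and 3 without hyphae replicate 2). The share of all tested genes called lower there was 50.0% (30.0% rescaled). For conidia minus control 1 was called lower, Cbr2 (-1.41), with 0 to 3 calls when 1 library was left out. The 7 markers of alveolar type 2 cells summed to 25527 to 29675 FPKM in hyphae, 14563 to 25329 FPKM in conidia and 19994 to 28982 FPKM in control libraries. Sftpc made up most of these sums, and single markers differed in direction. For hyphae minus conidia 3 of the 7 were called lower, led by Slc34a2 (-2.57), and 1 higher, Sftpc (2 and 2 rescaled). For hyphae minus control 3 were called lower and 0 higher (2 and 3 rescaled). The shares of all genes in these comparisons are given above. The 7 endothelial markers summed to 945 to 1123 FPKM in hyphae, 765 to 818 FPKM in conidia and 560 to 855 FPKM in control libraries, and single markers differed in direction here too. Between hyphae and control, 3 were called higher in hyphae and 1 lower, Kdr (-0.84), with 3 and 0 rescaled. Between hyphae and conidia, 1 was called higher in hyphae and 0 lower (4 and 0 rescaled). The 6 erythroid markers summed to 8891 to 17263 FPKM in hyphae, 7654 to 9064 FPKM in conidia and 2320 to 18463 FPKM in control libraries. The 9 alveolar macrophage markers in the files summed to 668 to 838 FPKM in hyphae, 666 to 765 FPKM in conidia and 540 to 664 FPKM in control libraries. Cd9, at 319.19 to 460.83 FPKM, was the largest part of these sums, and single markers differed in direction. Between hyphae and control, 1 was called higher in hyphae, Cd9 (0.47), and 1 lower, Pparg (-0.88), with 3 and 0 rescaled. The call of Pparg was lost after rescaling (-0.53) and without hyphae replicate 2 (-0.76). What part any of these cell types had in the levels of the acute phase genes was not tested.

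**Figure D4:**
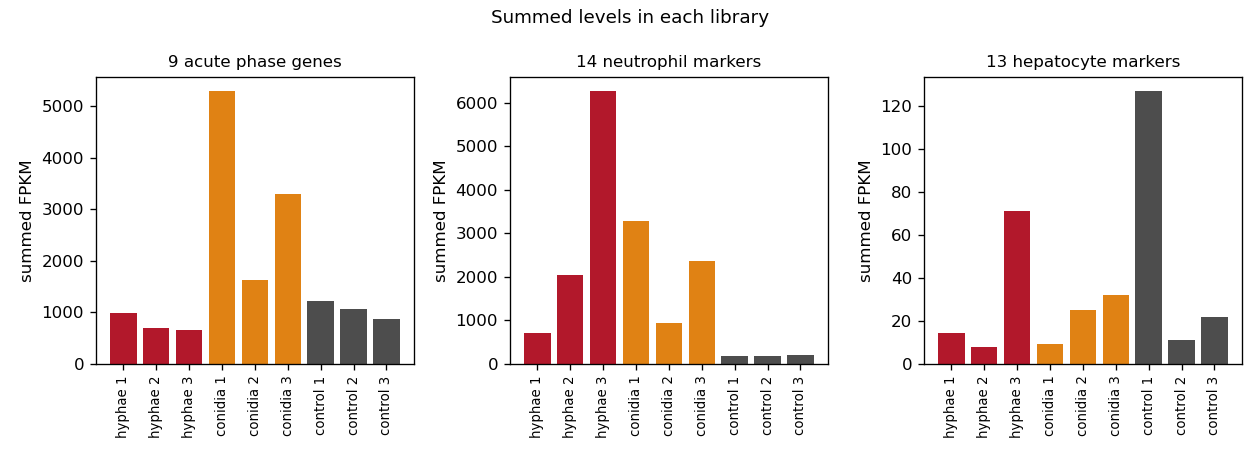
Bars give, for each library, the summed FPKM of the 9 acute phase genes, of 14 neutrophil markers and of 13 hepatocyte markers, with hyphae, conidia and control from left to right. The acute phase sum is highest in conidia replicate 1 at 5304 FPKM and the neutrophil sum in hyphae replicate 3 at 6274 FPKM. The hepatocyte sum, highest in control replicate 1 at 127 FPKM, holds 122.59 FPKM of Cyp2e1 there.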

How the data were processed

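The authors deposited 1 table of FPKM per library, covering 18984 genes with Entrez identifiers and symbols. The submitters' processing notes name HISAT, Bowtie2 and the build mm9, with neither roles nor versions, and what computed the FPKM is not given there. Groups came from the treatment labels. Values were used as deposited. limma 3.58.1 in R 4.3.3 (trend and robust empirical Bayes, two-sided, 1 model over all 9 libraries and 3 groups) was fitted to log2(FPKM + 1) of the 13761 genes that reached 1 FPKM in 3 or more libraries, with Benjamini-Hochberg adjustment, and was tested on simulated data. No count test was run, because the FPKM values hold no read counts. Approximate fragments come from a depth read from the steps between low values and from the length of each gene's longest coding transcript. Both are assumptions, so these numbers are rough. They would be lower for a gene whose FPKM was computed with a shorter transcript. RefSeq's assembly GRCm38.p6 is another build than mm9 and served for names and sequences alone. All p-values measure the spread between libraries, which may be technical.

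The 9 genes and all lists were chosen with earlier results of these data known. Of each list, up to 4 called genes with the largest difference were named per comparison. Alternatives were median-of-ratios rescaling, a pseudocount of 0.1, no filter, a replicate block, only the 2 groups compared, no robust moderation, and leaving out each library; applying them to the other gene lists and to single genes of those was added after seeing the data. The labels do not say whether replicate numbers pair the libraries, and the main model did not pair them.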

Additional observations from a re-analysis of the deposited data

How the results depend on the processing

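The differences of the 8 tested acute phase genes in the 3 comparisons were each recomputed under every alternative. Under the settings other than leaving out a library, 131 of the values kept direction and call, 11 lost a call and 2 gained one. When each library was left out in turn 165 kept both, 44 lost a call, 4 gained one and 3 turned: for hyphae minus control, Orm1 to -0.35 without control replicate 2 and to -0.05 without hyphae replicate 3, and Itih4 to -0.04 without hyphae replicate 2. Over the 9 libraries left out Orm1 ran up to 0.8 and Itih4 up to 0.36 there. The causes were not tested. Of the genes named from the other lists, the replicate block ended, with others, the calls of Il6 for hyphae minus conidia, Rbp4 for hyphae minus control and Tnf, Lcn2 and all 3 neutrophil markers for conidia minus control. Among the 9 genes, the calls with 1 library left out ranged between 6 and 8 for hyphae minus conidia, between 1 and 4 for hyphae minus control and between 0 and 7 for conidia minus control, where the analysis without a filter on low values made 3. Over all genes, conidia minus control had 95 calls, 47 after rescaling, 43 without the filter, which tests more genes, and 0 to 1535 with 1 library left out. The corresponding ranges were 5958 to 7922 for hyphae minus conidia and 7679 to 9033 for hyphae minus control. After rescaling, calls split into 3545 higher and 3468 lower for hyphae minus conidia, against 1752 and 5847 as deposited, and into 4058 and 4127 for hyphae minus control, against 2045 and 6886. Of the other acute phase genes, 5 were called for conidia minus control with a pseudocount of 0.1 and 1 without the filter, and 0 to 10 with 1 library left out, with 3 to 9 for hyphae minus control and 8 to 11 for hyphae minus conidia. With the replicate number as a block, 7, 3 and 4 of the 9 genes were called for hyphae minus conidia, hyphae minus control and conidia minus control, Lrg1 losing its calls in hyphae minus conidia and in conidia minus control, and 57 genes in all for the last. Libraries with the same number had deviations correlated between -0.31 and 0.42. Libraries with different numbers were not compared in this way, so whether the numbers pair libraries stays unknown. Depth limits Saa1, Saa2 and Saa4 in control and Orm2 in hyphae libraries, which rest on few fragments, and 3 libraries per group limit every call.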
